A study of Mus musculus with 6 samples.

Results

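Transcripts of 39 genes that start and carry out mitosis were followed in heart muscle cells from mice given α-ketoglutarate (AKG) or saline, out of 22063 genes in the table. They were chosen by gene symbol, with earlier results of these data known, and fall into 7 groups by role. These are the mitotic cyclins, CDK1 and other factors of mitotic entry (8 genes), the Polo and Aurora A kinases with the passenger complex (4), the centromere, kinetochore and spindle checkpoint (10), partners of the anaphase-promoting complex (2), spindle motors and other spindle proteins (8), condensin (5), and 2 further chromosome proteins, Top2a and Mki67. Each of the 39 matched 1 row, and each passed the low-count filter, with 303 counts over the 6 libraries for the sparsest. All mice were wild type. The labels place them at postnatal day 21 and give 2 weeks of one injection per day, either AKG at 300 mg per kg per day or phosphate-buffered saline, which is the Control. AKG, also called 2-oxoglutarate, is an intermediate of the tricarboxylic acid cycle. Cells were freed by enzyme perfusion of the heart (Langendorff's method), and each group held 3 libraries. The labels do not say whether a library was 1 mouse or a pool, so the p-values measure only the spread between these libraries, which may be technical. The study asked through which pathways AKG could act on division of heart muscle cells.

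Mitosis begins when the kinase CDK1, bound to cyclin B, is switched on by the CDC25 phosphatases. Condensin and topoisomerase II then compact the chromosomes, kinetochores built on the centromere attach them to the spindle, and the spindle checkpoint holds back the anaphase-promoting complex until every chromosome is attached. That complex, with its activator CDC20, then marks cyclin B and securin for destruction. Mouse heart muscle cells largely leave the cell cycle soon after birth, and their last rounds often end without division of the cell, so that mitotic transcripts are scarce in the grown heart. The cell preparations also contain other heart cells that can divide. Most mitotic genes are read late in the cell cycle through 2 kinds of promoter element. One is the cell cycle genes homology region (CHR), bound by complexes built on MuvB, which repress together with pocket proteins and activate together with B-MYB and FOXM1. The other is the CCAAT box, bound by NF-Y.

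The letters of these elements were looked for in promoter windows from RefSeq (build GRCm38.p6), which run from 250 bases before to 50 bases after the start of the gene. Of the 39 genes, 34 had a window. Ccna2, Cdc25c, Foxm1, Smc4 and Tpx2 had none in the table. The CHR was searched as TTTGAA or TTTAAA and the CCAAT box as CCAAT, each on both strands, and neither motif contains the other. A CHR match was found in 28 of 34 windows (82.4%), against 27.6% of all 32851 windows and 19.5% of the windows of genes tested in these libraries. A CCAAT match was found in 24 (70.6%), against 37.4% and 37.5%. Both were found in 23 (67.6%), against 10.7% and 7.58%, and 2 or more CCAAT matches in 18 (52.9%), against 11.7% and 13.9%. A match is a string of letters and was not tested as a binding site. The 130 bases just before the start are shown for cyclin B and its kinase, for Plk1 and Cdc20, and for Cenpa and Ncapd2, the pair of genes whose fold change was not positive on the TMM scaling (it was positive with total counts). CHR and CCAAT letters on either strand are in capitals. The regions are, in this order, chr10:69352913-69353042, minus strand; chr13:100786487-100786616, minus strand; chr9:70421555-70421684, minus strand; chr7:122159305-122159434, plus strand; chr4:118437344-118437473, minus strand; chr5:30666756-30666885, plus strand; and chr6:125191587-125191716, minus strand.
Cdk1: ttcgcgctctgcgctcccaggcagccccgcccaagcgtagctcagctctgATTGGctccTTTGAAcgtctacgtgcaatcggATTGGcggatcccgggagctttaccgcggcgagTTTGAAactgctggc
Ccnb1: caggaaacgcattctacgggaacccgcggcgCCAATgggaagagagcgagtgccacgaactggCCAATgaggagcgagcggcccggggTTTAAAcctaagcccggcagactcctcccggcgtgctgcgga
Ccnb2: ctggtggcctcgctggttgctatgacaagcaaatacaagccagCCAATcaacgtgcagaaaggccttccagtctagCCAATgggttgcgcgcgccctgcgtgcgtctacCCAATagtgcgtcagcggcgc
Plk1: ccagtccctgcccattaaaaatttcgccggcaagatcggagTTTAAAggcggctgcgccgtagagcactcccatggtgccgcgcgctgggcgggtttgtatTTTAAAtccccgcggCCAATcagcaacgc
Cdc20: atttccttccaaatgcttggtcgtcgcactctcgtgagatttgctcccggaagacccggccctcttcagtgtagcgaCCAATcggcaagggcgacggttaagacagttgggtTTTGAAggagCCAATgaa
Cenpa: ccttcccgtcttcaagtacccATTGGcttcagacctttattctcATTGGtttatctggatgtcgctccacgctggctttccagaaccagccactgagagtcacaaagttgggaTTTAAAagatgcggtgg
Ncapd2: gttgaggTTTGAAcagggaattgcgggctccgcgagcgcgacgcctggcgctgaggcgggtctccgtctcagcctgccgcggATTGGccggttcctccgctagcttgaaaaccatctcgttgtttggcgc
Each stretch holds at least 1 CCAAT match. The Cdk1 and Plk1 stretches hold 2 CHR matches each, and those of Ccnb1, Cdc20, Cenpa and Ncapd2 hold 1. The Ccnb2 stretch holds 3 CCAAT matches and no CHR match, and the full window of Ccnb2 has 2 CHR matches outside the stretch, of which 1 lies 4 bases after the start.

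Most of these genes were modestly higher after AKG. Of 39, 31 rose and 0 fell at an adjusted p under 0.05 in edgeR's quasi-likelihood test, where 25.0% of the 13117 genes tested were higher and 25.2% lower. The 39 were picked with earlier results of these data known, so these shares describe the set and do not test it. The median log2 fold change was 0.75, beside 0.00 for the whole set of genes tested. The 3 AKG libraries lay wholly above the 3 Controls for 32 of the 39, where 29.4% of all tested genes did so and 29.9% lay wholly below. No gene of the 39 was lower at an unadjusted p under 0.05, and 0 were lower with DESeq2 or limma-voom. Levels are given as CPM, counts scaled to a common library total after TMM correction, so a rise is relative to the bulk of genes. Summed over the 39, they were 488, 605 and 517 CPM in Controls 1, 2 and 3 and 809, 824 and 976 CPM in AKG 1, 2 and 3. The AKG libraries were all above the Controls. In counts, 7024 to 9744 of 16241120 to 17797368 fell on these genes in the Controls, and 13257 to 17588 of 14402876 to 15315236 after AKG.

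The scaling sets the zero line for these values. With total counts as the scaling the median of all genes tested was 0.45 instead of 0.00. All 39 genes then passed as higher and their median became 1.19, where 56.7% of tested genes were higher and 9.12% lower. In the authors' deposited table, the log2 fold change compares mean FPKM (a level per unit of transcript length and of library size). The test behind its false discovery rate is not given in the sources used here. At a deposited rate under 0.05, 30 of the 39 were higher, where 16.3% of the 22063 genes were. That total includes genes that the low-count filter removed here. The 9 not past that threshold included Cdk1, and the median of the 39 deposited log2 fold changes was 1.195. Cenpa had a deposited log2 fold change of 0.45 at a false discovery rate of 0.962, so calls and fold changes there need not share a zero line. AKG 1 and AKG 3 held more atrial transcript than AKG 2: 8 atrial markers summed to 109 to 176 CPM in the Controls and to 949, 498 and 1021 CPM in AKG 1, 2 and 3. Much of these sums was Nppa, at 500, 454 and 720 CPM in AKG 1, 2 and 3. Myl7 stood at 138, 1.12 and 88.0 CPM there and Sln at 42.8, 0.186 and 28.8 CPM. For Myl7, Sln and Myl4, AKG 2 lay within the range of the Controls. For Nppa, Dkk3, Gja5 and Mybphl it lay above them, and Bmp10 was at 0.0621 CPM in AKG 2. With AKG 2 alone against the 3 Controls, 22 of the 39 passed as higher and none as lower (median 0.60), where 20.1% of tested genes were higher and 20.7% lower. In that fit the spread comes from the 3 Controls only, and the lone AKG library is assumed to vary like them, so a call lost there is given below with its fold change. Mitochondrially encoded transcripts took 38.3% to 43.1% of the counts in the Controls and 25.7% to 31.4% after AKG, and without them 31 of the 39 were again higher.

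**Figure D1:**
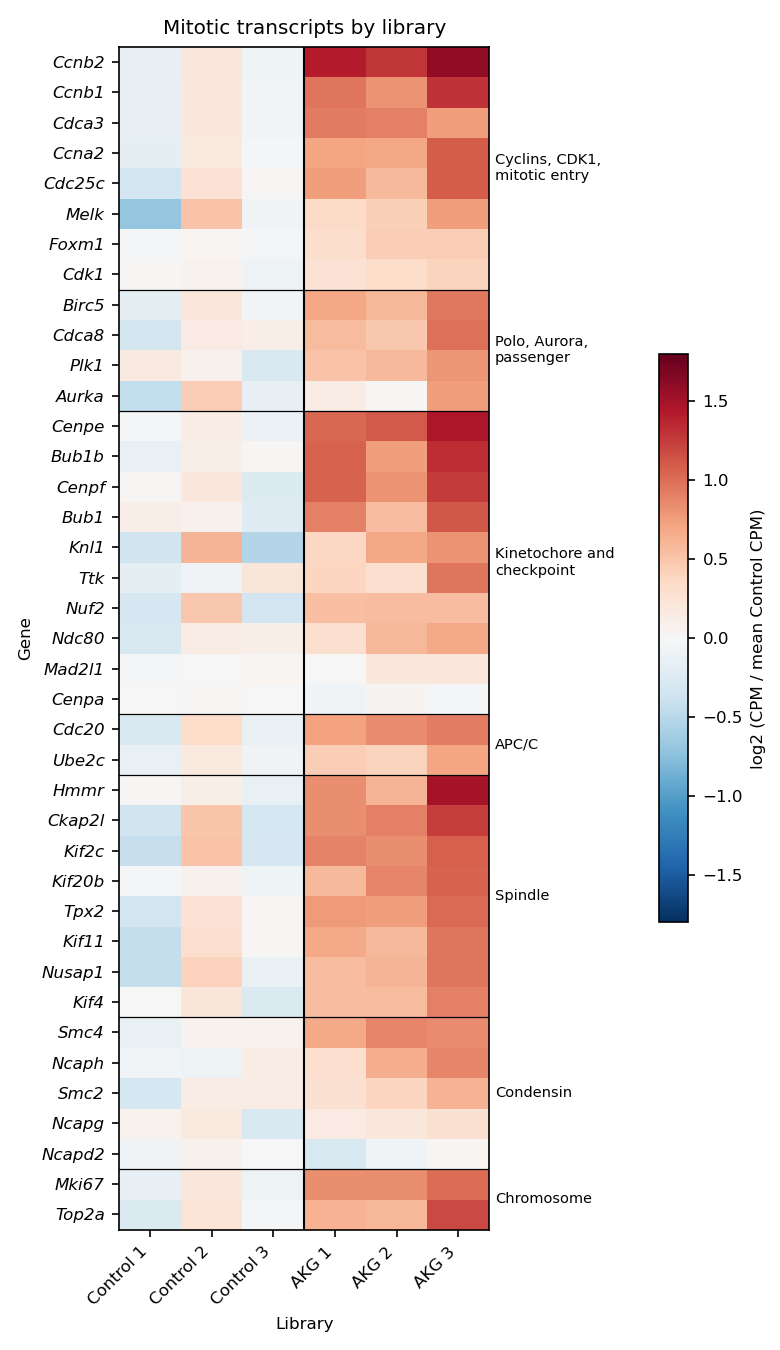
Level of each of the 39 transcripts in each library, as log2 of CPM over the mean CPM of the Controls, for the Controls (left of the line) and AKG (right), with genes ordered by role and fold change. All 3 AKG columns lie above the 3 Controls for 32 genes, and the rows of Cenpa and Ncapd2 stay near 0 on this scaling (both are higher with total counts as the scaling); AKG 3 is the highest AKG library for 34 of the 39.

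The libraries of a group did not scatter independently from gene to gene. Control 2 was the highest of the Controls for 33 of the 39 genes and AKG 3 was the highest of the AKG libraries for 34. Control 1 was the lowest Control for 25. Control 2 is also the library that held 0.311 CPM of 4 Y-linked transcripts, beside 168 and 176 CPM in the other Controls and 39.01 to 89.2 CPM in the AKG libraries. The part of sex in these values was not tested. Without Control 2 the count of higher genes rose to 33 with a median of 0.89, and without AKG 3 it was 27 with a median of 0.61. In both fits the share of all tested genes called higher was below the 25.0% of the main fit.

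Cyclin B transcripts had larger fold changes than the transcript of their kinase. Of the 8 genes of mitotic entry, 7 rose and 0 fell, with a median of 0.83. Ccnb2, which encodes the cyclin B of the Golgi and cytoplasm, stood at 7.83, 10.0004 and 8.24 CPM in Controls 1, 2 and 3 and 23.2, 21.1 and 26.2 CPM in AKG 1, 2 and 3 (log2 fold change 1.43, SE 0.128, edgeR adjusted p = 1.16e-06). It had the largest fold change of the 39, with every AKG library above 2 times the highest Control. Ccnb1, the cyclin B that is needed for mitosis, stood at 8.10, 10.2 and 8.69 CPM in Controls 1, 2 and 3 and 17.5, 15.7 and 22.3 CPM in AKG 1, 2 and 3 (log2 fold change 1.04, SE 0.148, edgeR adjusted p = 6.66e-05). Cyclin A, which acts in S phase and early mitosis and is encoded by Ccna2, stood at 17.5, 22.2 and 19.4 CPM in Controls 1, 2 and 3 and 32.4, 31.8 and 42.0 CPM in AKG 1, 2 and 3 (log2 fold change 0.84, SE 0.126, edgeR adjusted p = 0.000116). For both genes the lowest AKG library lay well above the highest Control. Cdk1 itself stood at 16.1, 16.5 and 14.9 CPM in Controls 1, 2 and 3 and 18.9, 19.8 and 20.8 CPM in AKG 1, 2 and 3. These groups did not overlap either, but the step was small (log2 fold change 0.33, SE 0.101, edgeR adjusted p = 0.0153), and the call was lost with AKG 2 alone (log2 fold change 0.33, edgeR adjusted p = 0.0692) and without Control 3 (0.28, adjusted p = 0.0672).

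The shift in proportion between cyclin B and its kinase was read within each library, where the scaling cancels. The log2 ratio of Ccnb2 to Cdk1 was -0.99, -0.70 and -0.81 in the Controls and 0.28, 0.09 and 0.33 after AKG. That of Ccnb1 to Cdk1 was -0.95, -0.66 and -0.74 in the Controls and -0.11, -0.33 and 0.10 after AKG. Both ratios were higher in all 3 AKG libraries than in any Control, with differences of 1.07 and 0.67. Ccnb2 also gained on Ccnb1, by 0.40, and here the groups again did not overlap. Each of these 3 differences had an exact two-sided permutation p of 0.1 (n = 3 per group), the smallest that 3 libraries against 3 allow, and an adjusted value of 0.2 over the 8 ratios computed. Per transcript length, the level of Cdk1 was 9.87 FPKM in Control and 15.6 FPKM after AKG. That of Ccnb2 was 4.89 FPKM in Control and 18.0 FPKM after AKG, so the order of these mean FPKM levels was reversed.

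The remaining entry genes had smaller fold changes than cyclin B. Foxm1, the transcription factor that drives late cell cycle genes, stood at 12.5, 12.9 and 12.5 CPM in the Controls and 15.7, 17.3 and 17.3 CPM after AKG (log2 fold change 0.40, SE 0.106, edgeR adjusted p = 0.00625). The Controls lay close together and below every AKG library. Cdca3, which helps to bring about mitotic entry, rose from 9.24 ± 1.13 to 16.8 ± 1.08 CPM (mean ± SD, n = 3 per group; log2 fold change 0.86). Cdc25c, a phosphatase that activates CDK1, rose by 0.82 on the log2 scale from a Control mean of 2.24 CPM, and its call was lost with AKG 2 alone (log2 fold change 0.58), without Control 1 and without AKG 3 (edgeR adjusted p up to 0.213). Melk, a kinase gene of dividing cells, stood at 1.57, 3.603 and 2.43 CPM in the Controls and 3.20, 3.42 and 4.27 CPM after AKG and did not pass (log2 fold change 0.51, SE 0.285, edgeR adjusted p = 0.152). Its Control 2 value exceeded AKG 1 and AKG 2, and without Control 2 it passed (edgeR adjusted p = 0.0361).

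**Figure D2:**
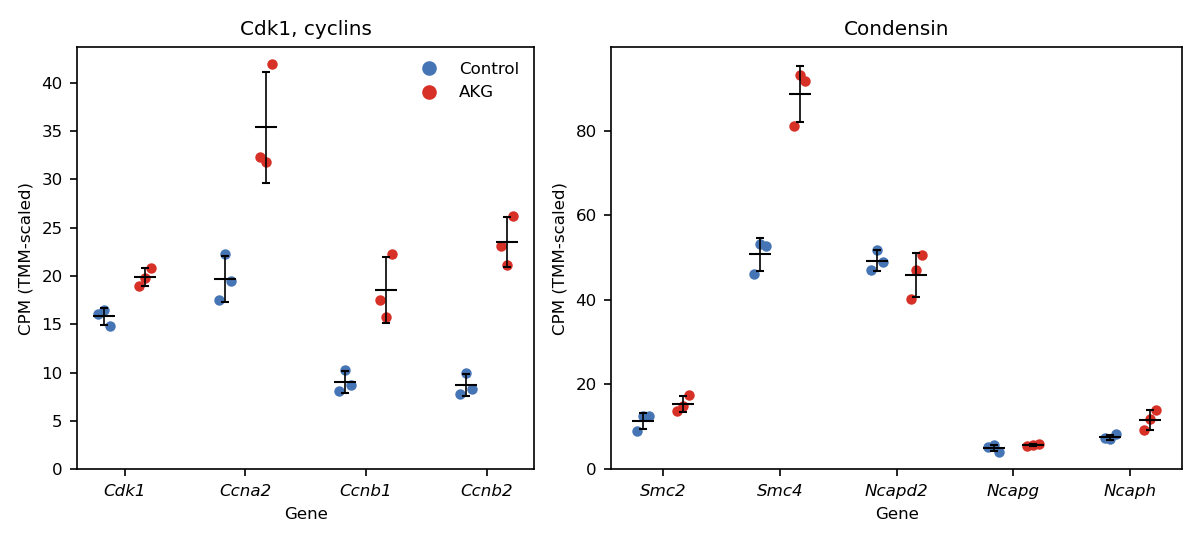
CPM in each library (points) with the group mean and SD (black bars, n = 3 per group) for Cdk1 and the mitotic cyclins (left) and for the 5 condensin genes (right). The Control and AKG points of Ccnb1 and Ccnb2 lie far apart and those of Cdk1 close together; among condensin genes Smc4 separates most, while the points of Ncapd2 and Ncapg overlap.

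Among the mitotic kinases and the passenger complex 3 of 4 genes rose and 0 fell, with a median of 0.67. Plk1, the Polo kinase of mitotic entry and spindle assembly, stood at 8.98, 8.45 and 6.63 CPM in the Controls and 11.4, 12.1 and 13.9 CPM after AKG (log2 fold change 0.63, SE 0.147, edgeR adjusted p = 0.00278). Every AKG value was above every Control. Birc5 (survivin) and Cdca8 (borealin) are partners in the passenger complex that corrects faulty attachments. Birc5 stood at 6.87, 9.01 and 7.51 CPM in the Controls and 12.6, 11.7 and 15.1 CPM after AKG (log2 fold change 0.75, SE 0.148, edgeR adjusted p = 0.000854). Cdca8 stood at 4.90, 6.83 and 6.70 CPM in the Controls and 9.11, 8.57 and 12.3 CPM after AKG (log2 fold change 0.70, SE 0.183, edgeR adjusted p = 0.00581), and its call was lost with AKG 2 alone (log2 fold change 0.49, edgeR adjusted p = 0.0987). The log2 ratio of Cdca8 to Birc5 averaged -0.33 in the Controls and -0.39 after AKG, and the groups overlapped (exact permutation p = 0.7, n = 3 per group). Aurkb and Incenp, passenger complex genes counted in a further list, did not pass (log2 fold change 0.21 and 0.30, edgeR adjusted p = 0.356 and 0.115). Aurka, the Aurora A kinase of the spindle poles, did not pass: it stood at 3.47, 6.46 and 4.27 CPM in the Controls and 5.17, 4.78 and 7.99 CPM after AKG (log2 fold change 0.33, SE 0.260, edgeR adjusted p = 0.308). Control 2 lay above AKG 1 and AKG 2. With total counts as the scaling its edgeR adjusted p was 0.032, with a log2 fold change of 0.78.

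The kinetochore genes had the widest range of fold changes of the 7 groups. Of 10 genes of the centromere, kinetochore and checkpoint, 6 rose and 0 fell, with a median of 0.60 and a range from -0.02 to 1.21. All 10 passed as higher when scaled by total counts, where 56.7% of tested genes did. Cenpe, the motor that moves chromosomes to the spindle equator, stood at 10.8, 12.1 and 10.2 CPM in the Controls and 22.5, 23.8 and 30.1 CPM after AKG (log2 fold change 1.21, SE 0.128, edgeR adjusted p = 5.22e-06). The farnesylated kinetochore protein gene Cenpf stood at 20.8, 23.4 and 17.3 CPM in the Controls and 43.0, 36.1 and 48.9 CPM after AKG (log2 fold change 1.05, SE 0.131, edgeR adjusted p = 3.87e-05). In both, each AKG library lay at least 1.5 times above the highest Control. The checkpoint genes of the BUB family followed. Bub1b (BubR1), which holds the anaphase-promoting complex in check, stood at 8.17, 9.63 and 9.05 CPM in the Controls and 18.7, 15.03 and 22.6 CPM after AKG (log2 fold change 1.07, SE 0.149, edgeR adjusted p = 5.72e-05). Bub1, which recruits checkpoint proteins to the kinetochore, stood at 4.70, 4.53 and 3.68 CPM in the Controls and 8.09, 6.34 and 9.38 CPM after AKG (log2 fold change 0.88, SE 0.190, edgeR adjusted p = 0.00164). Neither overlapped between groups, but the call of Bub1 was lost with AKG 2 alone (log2 fold change 0.56, edgeR adjusted p = 0.0946).

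The microtubule-binding NDC80 complex and the checkpoint effector had smaller fold changes. Its subunits Ndc80 and Nuf2, which form a dimer, rose by 0.53 and 0.54 on the log2 scale (edgeR adjusted p = 0.0213 and 0.0355). Nuf2 stood at 6.06, 10.4 and 5.89 CPM in the Controls and 10.8, 10.996 and 10.99 CPM after AKG, so that Control 2 came close to the AKG libraries. The calls of this pair depended on single libraries: Nuf2 was not past the threshold without any one of Control 1, Control 3, AKG 1, AKG 2 or AKG 3 or with AKG 2 alone (log2 fold change 0.55, adjusted p up to 0.149), and Ndc80 was not without Control 1, AKG 2 or AKG 3 (up to 0.0991). The log2 ratio of Nuf2 to Ndc80 averaged 0.30 in the Controls and 0.37 after AKG, and the groups overlapped. Spc24 and Spc25, NDC80 complex genes counted in a further list, did not pass (log2 fold change 0.28 and 0.23, edgeR adjusted p = 0.191 and 0.314). Knl1, the scaffold on which BUB proteins gather, stood at 3.74, 7.33 and 3.31 CPM in the Controls and 6.18, 7.77 and 8.38 CPM after AKG and did not pass (log2 fold change 0.62, SE 0.275, edgeR adjusted p = 0.0833). Its Control 2 lay above AKG 1, and without Control 2 it passed, with a log2 fold change of 1.07 (edgeR adjusted p = 0.00211). The checkpoint kinase gene Ttk (MPS1) did not pass either, at 2.25, 2.42 and 2.94 CPM in the Controls and 3.32, 3.11 and 4.94 CPM after AKG (log2 fold change 0.58, edgeR adjusted p = 0.0674), although its groups did not overlap, and it passed without AKG 2 (0.0461). Mad2l1, which carries the wait signal to CDC20, stood at 10.9, 11.1 and 11.4 CPM in the Controls and 11.1, 12.7 and 12.8 CPM after AKG (log2 fold change 0.13, edgeR adjusted p = 0.378).

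Cenpa had the fold change nearest 0 of the 39. The gene encodes the histone H3 variant that marks the centromere, and it stood at 32.7, 33.4 and 32.6 CPM in Controls 1, 2 and 3 and 31.4, 34.0 and 32.3 CPM in AKG 1, 2 and 3 (log2 fold change -0.02, SE 0.0824, edgeR adjusted p = 0.894). All 6 libraries lay close together, and the groups overlapped. Its fold change was positive with total counts as the scaling (0.43), with limma on log2 FPKM with a pseudocount of 1 (0.43) or 0.1 (0.45), with AKG 2 alone (0.05) and without AKG 1 (0.02). Per length it was also the most abundant of the 39 in both groups, at 24.8 FPKM in Control and 33.9 FPKM after AKG.

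Both partners of the anaphase-promoting complex rose. Cdc20, its mitotic activator, stood at 10.1, 15.3 and 11.2 CPM in the Controls and 20.2, 22.0 and 23.2 CPM after AKG (log2 fold change 0.83, SE 0.142, edgeR adjusted p = 0.000318). Ube2c, the ubiquitin-conjugating enzyme that works with it, stood at 16.1, 19.9 and 16.9 CPM in the Controls and 24.0, 23.4 and 29.0 CPM after AKG (log2 fold change 0.53, SE 0.117, edgeR adjusted p = 0.00204). The groups did not overlap for either gene. By GENCODE M21, exons of Ube2c share 592 bases with those of Tnnc2 on the opposite strand. Whether the counting used strand was not given in the sources, so reads of such bases cannot be told apart. In the same way Ncapg overlaps Lcorl by 944 bases, Kif4 overlaps Pdzd11 by 832 and Ccna2 overlaps Exosc9 by 510, and 13 of the 39 share exon bases with another gene. Among the 13, Foxm1, Top2a and Ncapd2 overlap genes on the same strand, where counting by strand would not part the reads. For Ncapd2 these are Scarna10 (237 bases) and Gm28967 (235 bases). Ccnb1, Ccnb2 and Kif4 also have named processed pseudogenes, so the split of their reads is uncertain.

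All 8 spindle genes were higher. Their log2 fold changes ran from 0.68 to 1.03, with a median of 0.85, and in each of the 8 all AKG libraries lay above all Controls. With AKG 2 alone 5 of the 8 were higher, and Kif11, Nusap1 and Ckap2l were not past the threshold, with log2 fold changes of 0.58, 0.61 and 0.90. Tpx2, which activates Aurora A and nucleates spindle microtubules, stood at 9.53, 14.4 and 12.2 CPM in the Controls and 20.6, 20.3 and 24.4 CPM after AKG (log2 fold change 0.85, SE 0.143, edgeR adjusted p = 0.000281). Kif20b, a kinesin of late mitosis, stood at 6.67, 7.14 and 6.40 CPM in the Controls and 10.1, 12.4 and 14.1 CPM after AKG (log2 fold change 0.85, SE 0.152, edgeR adjusted p = 0.000402). The chromosome-arm kinesin gene Kif4 stood at 7.15, 8.26 and 5.96 CPM in the Controls and 10.5, 10.6 and 13.4 CPM after AKG (log2 fold change 0.68, SE 0.160, edgeR adjusted p = 0.00289). None of these overlapped between groups, and each was highest in AKG 3. Hmmr, a microtubule-binding protein of the spindle poles, stood at 8.64, 9.13 and 7.73 CPM in the Controls and 15.2, 13.05 and 24.0 CPM after AKG (log2 fold change 1.03, SE 0.217, edgeR adjusted p = 0.0031). AKG 3 stood apart here, far above the other AKG libraries. Nusap1, a protein that bundles spindle microtubules, had the largest p of the group, at 7.15, 12.9 and 8.91 CPM in the Controls and 14.2, 14.7 and 18.9 CPM after AKG (log2 fold change 0.72, SE 0.202, edgeR adjusted p = 0.0131). Its Control 2 came close to AKG 1, and the call was lost with AKG 2 alone (edgeR adjusted p = 0.0833) and without Control 3 (0.0595). Kif11, the motor that pushes the spindle poles apart, rose by 0.75 on the log2 scale, the depolymerase gene Kif2c by 0.93 and Ckap2l by 1.0006.

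**Figure D3:**
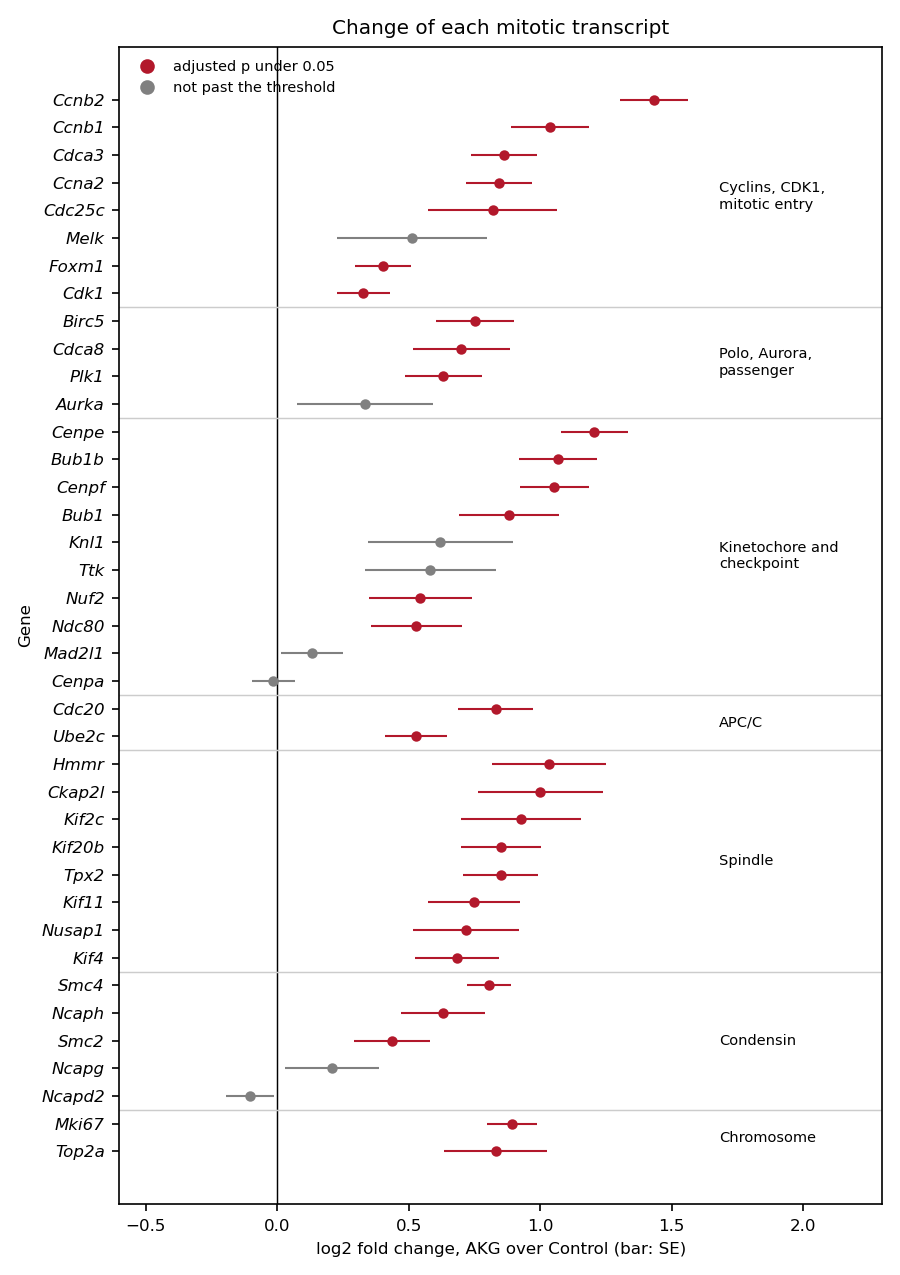
Log2 fold change of each of the 39 genes (AKG over Control, points) with its SE (bars), grouped by role, for genes that passed the edgeR test at an adjusted p under 0.05 (red) and those that did not (grey). All 8 spindle genes lie between 0.68 and 1.03, while kinetochore genes spread from -0.02 to 1.21 and condensin genes from -0.10 to 0.80; Cenpa and Ncapd2 turn positive with total counts as the scaling.

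Condensin subunits differed in their fold changes. Condensin is a ring of the ATPases SMC2 and SMC4 closed by NCAPH, with NCAPD2 and NCAPG as the further subunits of condensin I. Of the 5 genes, 3 rose and 0 fell, with a median of 0.44. All 5 passed as higher when scaled by total counts, where 56.7% of tested genes did. Smc4 stood at 46.2, 53.2 and 52.9 CPM in Controls 1, 2 and 3 and 81.2, 93.1 and 91.8 CPM in AKG 1, 2 and 3 (log2 fold change 0.80, SE 0.0839, edgeR adjusted p = 4.4e-06). Its partner Smc2 stood at 9.12, 12.5 and 12.5 CPM in Controls 1, 2 and 3 and 13.7, 14.8 and 17.6 CPM in AKG 1, 2 and 3 (log2 fold change 0.44, SE 0.145, edgeR adjusted p = 0.0229). Smc2 and Smc4 also serve condensin II, and neither overlapped between groups, although the call of Smc2 was lost without Control 1, without AKG 3 and with AKG 2 alone (log2 fold change 0.39 there, adjusted p up to 0.115). Ncaph stood at 7.28, 7.08 and 8.24 CPM in the Controls and 9.28, 11.8 and 13.9 CPM after AKG (log2 fold change 0.63, SE 0.161, edgeR adjusted p = 0.00511). Its AKG values were higher than all Controls but spread more.

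The other condensin I subunits did not pass. Ncapg stood at 5.24, 5.65 and 4.12 CPM in the Controls and 5.57, 5.78 and 6.05 CPM after AKG (log2 fold change 0.21, SE 0.179, edgeR adjusted p = 0.356), and AKG 1 fell below Control 2. Ncapd2 stood at 47.0, 51.9 and 49.0 CPM in Controls 1, 2 and 3 and 40.2, 47.0 and 50.5 CPM in AKG 1, 2 and 3 (log2 fold change -0.10, SE 0.0922, edgeR adjusted p = 0.374), with overlapping groups. Its fold change was positive with total counts as the scaling (0.34, adjusted p = 0.0151) and with limma on log2 FPKM with a pseudocount of 1 (0.22) or 0.1 (0.23). Within each library, where the scaling cancels, the log2 ratio of Ncapd2 to Smc2 was 2.303, 2.01 and 1.93 in the Controls and 1.52, 1.63 and 1.497 after AKG. It was lower in every AKG library than in any Control, by 0.53 on average (p = 0.1 by the same exact test, n = 3 per group, which is its lower limit, and 0.2 adjusted over the 8 ratios). The ratios of Ncaph to Smc2 and of Ncapg to Smc2 overlapped between groups, with differences of 0.15 and -0.22 (exact permutation p = 0.4 and 0.5).

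Top2a and Mki67 both rose. Top2a, the DNA topoisomerase that untangles sister chromosomes, stood at 20.1, 28.5 and 23.5 CPM in the Controls and 37.1, 36.3 and 54.9 CPM after AKG (log2 fold change 0.83, SE 0.195, edgeR adjusted p = 0.00926), with AKG 3 well above the rest. Mki67, which coats the surface of mitotic chromosomes and is the source of the Ki-67 marker of cycling cells, stood at 63.5, 80.8 and 66.0 CPM in the Controls and 125, 125 and 141 CPM after AKG (log2 fold change 0.89, SE 0.0953, edgeR adjusted p = 6.07e-06). The AKG libraries lay close together and far above the Controls.

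Mitotic genes outside the 39, taken with regulators of transcription, included both higher and lower calls. Of 151 genes in 7 lists, 23 of them regulators of transcription, 51 rose and 16 fell, where 25.0% of all tested genes were higher and 25.2% lower. The median log2 fold change of the 151 was 0.21, with a range from -1.36 to 1.31. Scaled by total counts, 110 were higher and 3 lower, where 56.7% of all tested genes were higher and 9.12% lower. The 3 still lower were Pttg1, Tubg1 and, from the list of regulators, E2f6. Of the 16, Cenpb, Ensa, Tfdp1, Anapc11, Arpp19, Nde1 and Lin37 then had fold changes above 0, up to 0.21 (Nde1), so the lower calls of these genes below hold relative to the bulk of genes. By median fold change, spindle motors and other spindle proteins came nearest to the 39 among the 7 lists: of 33, 21 rose and 2 fell, with a median of 0.42. The astrin partner gene Knstrn rose from 11.3 ± 2.05 to 27.2 ± 4.01 CPM and the spindle pole gene Aspm from 11.7 ± 1.42 to 24.0 ± 3.22 CPM (mean ± SD, n = 3 per group). Kif3a, counted in that list as a kinesin gene, rose from 17.5 ± 0.754 to 26.6 ± 0.438 CPM, and its part in the spindle was not tested. The γ-tubulin gene Tubg1 fell from 27.9 ± 1.28 to 14.8 ± 0.979 CPM and Nde1, a partner of dynein, from 37.8 ± 0.406 to 32.1 ± 1.33 CPM. Of 14 cohesin genes, whose ring holds sister chromosomes together, 9 rose and 0 fell, with a median of 0.34, and the smallest p-values were those of Stag2 (log2 fold change 0.67), Rad21 (0.56) and Stag1 (0.47). Of the 3 genes particular to condensin II, Ncapg2 rose by 0.80 and the other two did not pass.

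Other centromere and kinetochore genes mostly did not pass. Of 39 of them, outside the 10 above, 5 rose, 4 fell and 30 were not past the threshold, with a median of 0.22. Over all tested genes 25.0% were higher and 25.2% lower. The cohesin protector gene Sgo2a rose by 0.77 and the kinetochore gene Dsn1 by 0.90 on the log2 scale. Zw10 fell from 18.5 ± 0.913 to 12.6 ± 0.882 CPM, Cenpb, whose protein binds centromere repeats, by -0.34, and Mad2l1bp by -0.46. Of 20 further kinases, phosphatases and cyclins, 9 rose and 3 fell. The phosphatase gene Cdc14b rose from 15.8 ± 1.07 to 25.001 ± 1.38 CPM, and Ppp2r2d, a regulatory subunit of the phosphatase that opposes CDK1, from 29.8 ± 0.574 to 42.0 ± 3.49 CPM. Mastl, the kinase that keeps that phosphatase off in mitosis, rose by 0.92. Its substrates Ensa and Arpp19 had log2 fold changes of -0.43 and -0.36 and both fell, and so did Pkmyt1, an inhibitory kinase of CDK1 (-0.45).

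Subunits of the anaphase-promoting complex and its targets gave 4 of 19 higher and 3 lower, with a median of 0.11. Both counts are smaller shares than the 25.0% and 25.2% over all tested genes. Pttg1 encodes securin, the protein that holds separase in check. It stood at 52.5, 48.0 and 47.3 CPM in Controls 1, 2 and 3 and 20.6, 23.5 and 20.97 CPM in AKG 1, 2 and 3 (log2 fold change -1.18, SE 0.0906, edgeR adjusted p = 2.91e-07), so that every AKG library lay below every Control, unlike Cdc20 and Ccnb1. The small subunit genes Anapc13 and Anapc11 fell by 0.61 and 0.43 on the log2 scale, and the larger subunit genes Anapc7, Anapc2 and Anapc4 rose by 0.45, 0.30 and 0.31. Of 23 genes of MuvB, the MYB and E2F factors, the pocket proteins and NF-Y, 2 rose and 4 fell, with a median of -0.07. The pocket protein gene Rbl2 (p130), a partner of repressive MuvB, rose from 28.7 ± 1.44 to 57.6 ± 8.87 CPM and the dimer partner gene Tfdp2 from 52.7 ± 4.63 to 98.5 ± 25.9 CPM. E2f6 fell from 38.3 ± 1.88 to 23.3 ± 2.51 CPM, Nfyc, a subunit of NF-Y, from 68.0 ± 2.75 to 49.1 ± 2.46 CPM and Tfdp1 from 36.9 ± 0.176 to 27.6 ± 2.32 CPM.

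**Figure D4:**
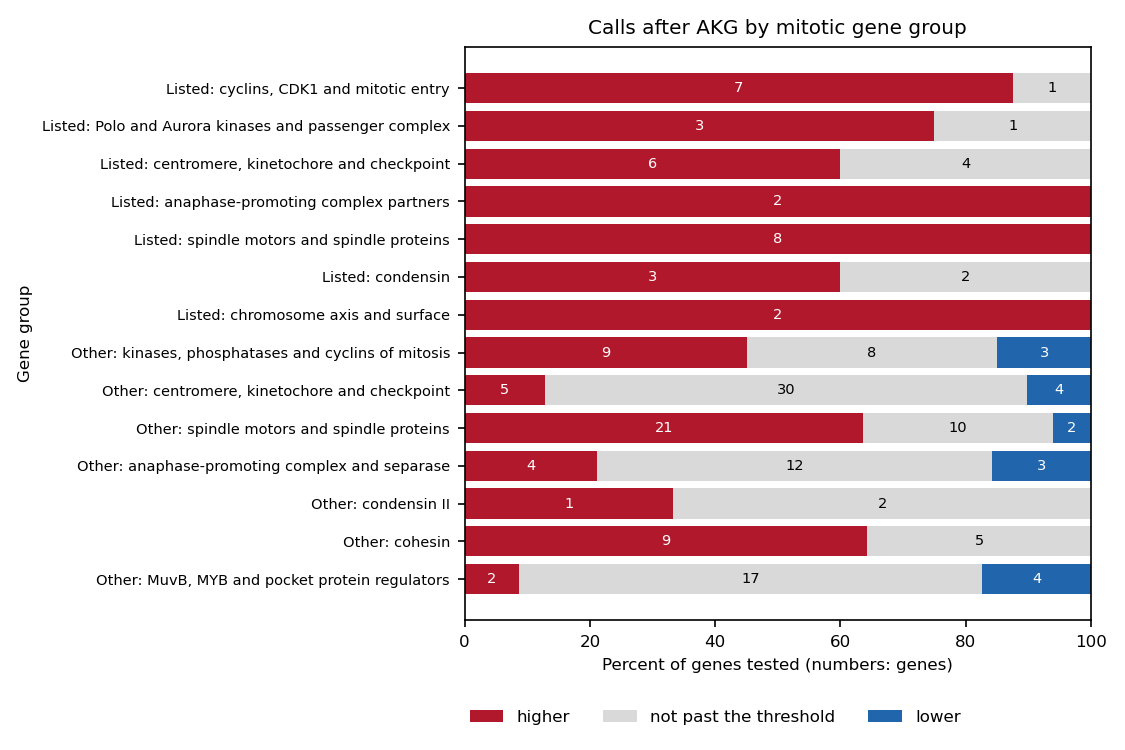
Share of tested genes in each group that was higher, lower or not past an adjusted p of 0.05 after AKG (edgeR, x axis in percent, numbers are genes), for the 7 groups of the 39 genes (Listed) and 7 lists of other mitotic genes and regulators of transcription (Other). The lower calls all lie in the other lists, 16 of 151 genes (3 with total counts as the scaling, where 9.12% of all tested genes were lower). Both the 39 and the other lists were chosen with earlier results of these data known. All 8 listed spindle genes and 21 of 33 other spindle genes were higher, where 25.0% of all tested genes were.

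The fold changes of genes with and without promoter matches overlapped. The 28 genes with a CHR match had a median log2 fold change of 0.75, with 22 higher, and the 6 without one a median of 0.59, with 4 higher. The 18 genes with 2 or more CCAAT matches had a median of 0.83 and the other 16 a median of 0.63. The ranges overlapped in both cases, and no test was made. Cenpa and Ncapd2 carry both kinds of match, as their printed stretches show. A match to the letters TTTGGCGC or TTTCCCGC, forms of the E2F site, was also searched on either strand. It occurred in 2 of the 34 windows (5.88%, against 1.56% of all windows and 2.74% of those of tested genes). These were the windows of Ncapd2 and Ncapg, the 2 condensin genes that did not pass, and the condensin gene Smc4 had no window. The windows of Cenpa, Aurka, Melk, Mad2l1, Ttk and Knl1, which did not pass either, held no such match. A link to the calls was not tested.

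Per transcript length the 39 genes spanned a wide range of levels. In the Controls the highest mean levels were those of Cenpa (24.8 FPKM), Ube2c (15.7 FPKM), Smc4 (11.3 FPKM) and Ncapd2 (10.3 FPKM), and the lowest those of Ttk (0.759 FPKM), Melk (0.744 FPKM) and Knl1 (0.567 FPKM). After AKG, Ccnb2 stood at 18.0 FPKM, above Cdk1 at 15.6 FPKM and Mki67 at 15.1 FPKM, and below Cenpa, Ube2c (30.7 FPKM) and Smc4 (26.3 FPKM).

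Markers of the cells in the preparations were read beside these results, where 25.0% of all tested genes were higher and 25.2% lower. The sum of 12 heart muscle markers was 68534 to 74136 CPM in the Controls and 34498 to 37923 CPM after AKG, with 9 of 12 lower and 0 higher. Much of that sum was Myh6 and Actc1, with means of 27743 and 11995 CPM in Control and 12427 and 2996 CPM after AKG. Pln, Mybpc3 and Nkx2-5 did not pass (log2 fold change -0.01, 0.08 and 0.08). The 14 endothelial markers summed to 2987 to 3285 and 2655 to 3270 CPM, with 4 higher and 4 lower, and the 12 fibroblast markers to 3362 to 4230 and 3221 to 4244 CPM, with 3 higher and 5 lower. Of 10 smooth muscle and pericyte markers 1 was higher and 6 lower (3331 to 3482 and 2263 to 2476 CPM), and of 13 macrophage markers 0 and 7 (154 to 232 and 99.0 to 127 CPM). Des, which is not particular to smooth muscle and pericytes, was among the 6, with means of 1032 CPM in Control and 849 CPM after AKG. The 8 lymphocyte markers summed to 6.26 to 9.66 and 1.78 to 2.75 CPM, with 3 tested and all 3 lower. The 9 neutrophil markers summed to 0.957 to 1.57 and 5.62 to 12.5 CPM, with 4 tested and all 4 higher, and Ly6g and Mpo at 0 in all libraries. The 9 markers of red cell precursors summed to 1731 to 2261 and 1544 to 2167 CPM, with 1 higher (Epor) and 1 lower (Tfrc) of 8 tested. Much of these sums was globin transcript, such as Hbb-bs with means of 669 CPM in Control and 715 CPM after AKG. Tfrc, which is not particular to red cell precursors, had means of 305 CPM in Control and 54.9 CPM after AKG. Which cells held the mitotic transcripts, and the part of these shifts in the results above, was not tested, and in these bulk libraries more dividing cells cannot be told apart from more transcript per cell.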

How the data were processed

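RNA of 6 libraries was measured by RNA sequencing of mRNA, per the labels' protocols. The authors deposited whole-number counts and FPKM per gene and library. They also deposited a log2 ratio of mean FPKM with a p-value and false discovery rate. The submitters' processing notes name HISAT2 2.1.0, RSEM 1.2.19 and DESeq2 1.20.0. Their roles, the genome build and the gene models are not given in the sources used here. From the counts, edgeR 4.0.16 (R 4.3.3) kept genes by filterByExpr (minimum count 10, total 15), scaled libraries by TMM and ran a robust quasi-likelihood test, with Benjamini-Hochberg adjustment over the 13117 genes kept and a threshold of 0.05. SE is the log2 fold change divided by the root of F. Totals ranged from 14402876 to 17797368 counts, and 3 counts equal 0.166 to 0.221 CPM. Ratios used log2(CPM + 0.5). Alternatives were other scalings and filters, DESeq2 1.42.0, limma 3.58.1, a replicate block and left-out libraries. The fit was tested on simulated data. The 39 genes, the lists and the naming rule were chosen with earlier results of these data known. By that rule all 39 are named, library values are given for the cyclins, the main kinases, condensin, Top2a, Mki67 and the 4 smallest and the largest p of the other groups, and up to 3 genes per direction are named from each further list. A gene that the rule selects is not reported here. Library values of Melk, Knl1, Ttk, Mad2l1 and Nuf2 were added after they had been seen. So were the values of Aurkb, Incenp, Spc24 and Spc25 and those of single marker genes.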

Additional observations from a re-analysis of the deposited data

How the results depend on the processing

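The counts of higher and lower genes among the 39 stayed within 1.5 times of 31 and 0 in all 18 alternatives, from 22 with AKG 2 alone to 39 with total counts, and 27 to 33 with a library left out. Of the 39, 21 kept their call in every alternative. With a library left out or the replicate block, fewer than the main fit's 25.0% of all tested genes were higher. Of the 151 other mitotic genes, 110 were higher and 3 lower with total counts, where 56.7% and 9.12% of all tested genes were. With limma on log2 FPKM at either pseudocount, 101 of the 139 tested were higher and 4 lower. Most of all tested genes were also higher there. The median of the 139 was 0.526 and 0.638 at pseudocounts 1 and 0.1, beside 0.375 and 0.441 for all tested genes. With total counts 10 kinetochore and 5 condensin genes were higher, and with AKG 2 alone 5 spindle genes. Fold changes that turned positive were those of Cenpa (0.427 with total counts, 0.434 and 0.448 with limma on FPKM at pseudocounts 1 and 0.1, 0.0529 with AKG 2 alone, and from -0.0389 to 0.0186 with a library left out, positive only without AKG 1) and Ncapd2 (0.34, 0.215 and 0.231 in the first 3 of these). The log2 ratio of Nuf2 to Ndc80 differed by 0.07 and ranged from -0.118 (without Control 3) to 0.255 (without Control 2) with a library left out, an alternative chosen after seeing the data, and was -0.03 without AKG 1. That of Cdca8 to Birc5 differed by -0.06 and ranged from -0.125 to 0.0228 (without Control 3). The replicate numbers did not pair the libraries: same-numbered deviations correlated at 0.161, -0.0342 and 0.0489, not each library correlated best with its own number, and the replicate block gave 32 higher of the 39. The other causes were not tested. Genes with few counts, Cdc25c, Melk and Ttk, had SE of 0.25 to 0.29, and so did Aurka (0.26) and Knl1 (0.27), whose libraries also differed within groups; the parts of depth and of spread were not separated.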
